A study of Mus musculus with 16 samples.

Results

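T cell receptor (TCR) beta V gene usage was examined in CD4+ and CD8+ tumor-infiltrating lymphocytes (TILs) by taking every gene of the deposited count table whose symbol starts with Trbv, whatever its annotated type. This selected 35 of 55450 genes, of which 22 are annotated as functional V genes and 13 as V pseudogenes. TILs came from subcutaneous tumors of B16F10, a melanoma line of C57BL/6 mice. The tumors grew in the flank of wild-type C57BL/6J mice (WT) or of mice of the strain B6.129-Sirt2tm1.1Fwa/J (Sirt2KO). The latter lack the NAD-dependent deacetylase SIRT2 in the whole body. The paper's methods state young mice with age- and sex-matched controls, and aged mice were also examined for spontaneous autoimmunity. The labels give no age for these libraries. The 4 groups, CD4 WT, CD4 Sirt2KO, CD8 WT and CD8 Sirt2KO, held 4 total RNA libraries each, and all T cells carried their own polyclonal receptors. The labels give 4 per group and name no animal for a library, so p-values measure the spread between these libraries.

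Each αβ T cell assembles its TCR beta chain from a V, a D and a J segment that are joined to a constant region, Trbc1 or Trbc2. The V segment encodes the leader, the loops CDR1 and CDR2 that lie over the MHC molecule, and the germline start of CDR3, the loop that reads the peptide. As a T cell usually expresses a single beta chain, the share of each V gene among TCR beta transcripts is a coarse picture of the repertoire, and an expanded clone raises the share of its V gene.

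All 35 genes lie on mouse chromosome 6 between 40891229 and 41558452 (GRCm38), and in the GENCODE M21 models 21 of the 22 functional V genes have a leader exon and a V exon, while Trbv21 has a single exon. Trbv31 sits downstream of the constant regions on the minus strand. Trbv12-1, Trbv13-1, Trbv12-2, Trbv13-2 and Trbv13-3 form an interleaved block of related genes. V exons of Trbv13-2 and Trbv13-3 were 91.8% identical, those of Trbv12-1 and Trbv12-2 were 89.1% identical and those of Trbv13-1 and Trbv13-2 were 87.8% identical, against a median of 53.5% over the 231 pairs of functional V genes. The last 120 bases of the V exon are shown for these 5 genes, for Trbv3, the most used V gene, and for Trbv29 and Trbv30, which filled 1 library, on the plus strand of GRCm38 from the GENCODE M21 transcripts. Capitals run from the last in-frame cysteine codon, where the germline part of CDR3 starts, to the end of the exon.
Trbv12-1 (chr6:41113948-41114067): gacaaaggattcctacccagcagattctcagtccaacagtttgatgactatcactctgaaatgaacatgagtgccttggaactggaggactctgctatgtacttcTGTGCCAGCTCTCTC
Trbv12-2 (chr6:41119245-41119364): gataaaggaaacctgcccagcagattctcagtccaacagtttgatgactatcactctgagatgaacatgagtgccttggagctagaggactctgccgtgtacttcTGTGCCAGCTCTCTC
Trbv13-1 (chr6:41116349-41116468): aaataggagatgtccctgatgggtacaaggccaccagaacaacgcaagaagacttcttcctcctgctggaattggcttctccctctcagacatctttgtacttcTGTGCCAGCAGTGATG
Trbv13-2 (chr6:41121713-41121832): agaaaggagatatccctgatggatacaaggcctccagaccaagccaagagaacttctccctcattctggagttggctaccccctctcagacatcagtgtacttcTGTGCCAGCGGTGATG
Trbv13-3 (chr6:41130466-41130585): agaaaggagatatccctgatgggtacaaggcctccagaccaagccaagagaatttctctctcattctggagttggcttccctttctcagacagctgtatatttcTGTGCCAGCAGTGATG
Trbv3 (chr6:41048709-41048828): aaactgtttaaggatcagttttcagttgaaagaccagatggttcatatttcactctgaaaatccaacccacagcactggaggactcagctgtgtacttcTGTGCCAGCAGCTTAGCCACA
Trbv29 (chr6:41271762-41271881): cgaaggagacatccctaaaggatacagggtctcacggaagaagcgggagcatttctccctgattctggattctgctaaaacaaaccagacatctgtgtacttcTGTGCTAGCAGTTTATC
Trbv30 (chr6:41281871-41281990): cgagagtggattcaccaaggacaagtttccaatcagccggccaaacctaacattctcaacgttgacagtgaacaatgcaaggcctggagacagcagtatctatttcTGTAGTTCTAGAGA

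Of the 21 functional V genes on the plus strand, 13 had TGTGCCAGC at the start of the capitals. Trbv12-1 and Trbv12-2 had identical capitals and differed at 9 of the 120 bases shown. Trbv13-1 and Trbv13-2 differed at 19 of 120 bases, Trbv13-1 and Trbv13-3 at 22 and Trbv13-2 and Trbv13-3 at 11. No stretch of 100 bases, the read length, was shared between any of these genes or with another transcript of the annotation. Trbv4, Trbv5 and the pseudogene Trbv8 were the exceptions among all members. Of their 100-base stretches, 67.3%, 73.2% and 100% also lie in another annotated transcript, and each overlaps a gene on the same strand (the lincRNA 5830405F06Rik for Trbv4 and Trbv5, AC153851.1 for Trbv8), so their low or zero counts are uncertain.

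Total counts were 28000949 to 62407851 per library, and Sirt2 was at 32.7 to 81.1 CPM (counts scaled to a common library total) in WT and at 0 to 12.3 CPM in Sirt2KO libraries. Cd4 was at 344 to 639 CPM in the CD4 libraries against 0 to 4.94 CPM in the CD8 libraries, and Cd8a was at 950 to 1251 CPM in the CD8 libraries against 0.0357 to 34.6 CPM in the CD4 libraries. Foxp3 was at 308 to 992 CPM in the CD4 libraries. Fewer than 15000 genes were detected in 3 libraries, CD4 Sirt2KO 4 (8169 genes), CD4 WT 1 (12587) and CD8 WT 1 (14411), against 17730 to 22138 in the other 13, so results that rest on them are given with and without them. In bulk RNA, fewer cells of a type and less RNA per cell cannot be told apart, which holds for every V gene level below.

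The 35 genes together held 110105 counts, 0.0162% of all counts. The summed Trbv count was 8858, 7320, 6715 and 993 in the 4 CD4 Sirt2KO libraries, 3411, 7858, 7053 and 4435 in the CD4 WT libraries, 10657, 9204, 8429 and 8153 in the CD8 Sirt2KO libraries and 5991, 6779, 7179 and 7070 in the CD8 WT libraries. CD4 Sirt2KO 4 was far below all others. A count of 0 therefore allows a share of up to 0.302% in that library and of up to 0.088% in any other (3 counts of the total, counting error only, as reads are not independent molecules). As CPM, the sum was 140 ± 58.8 CPM in the CD4 libraries and 191 ± 22.1 CPM in the CD8 libraries (SD, n = 8 each), with overlapping ranges of 15.9 to 197 and 164 to 234 CPM.

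**Figure D1:**
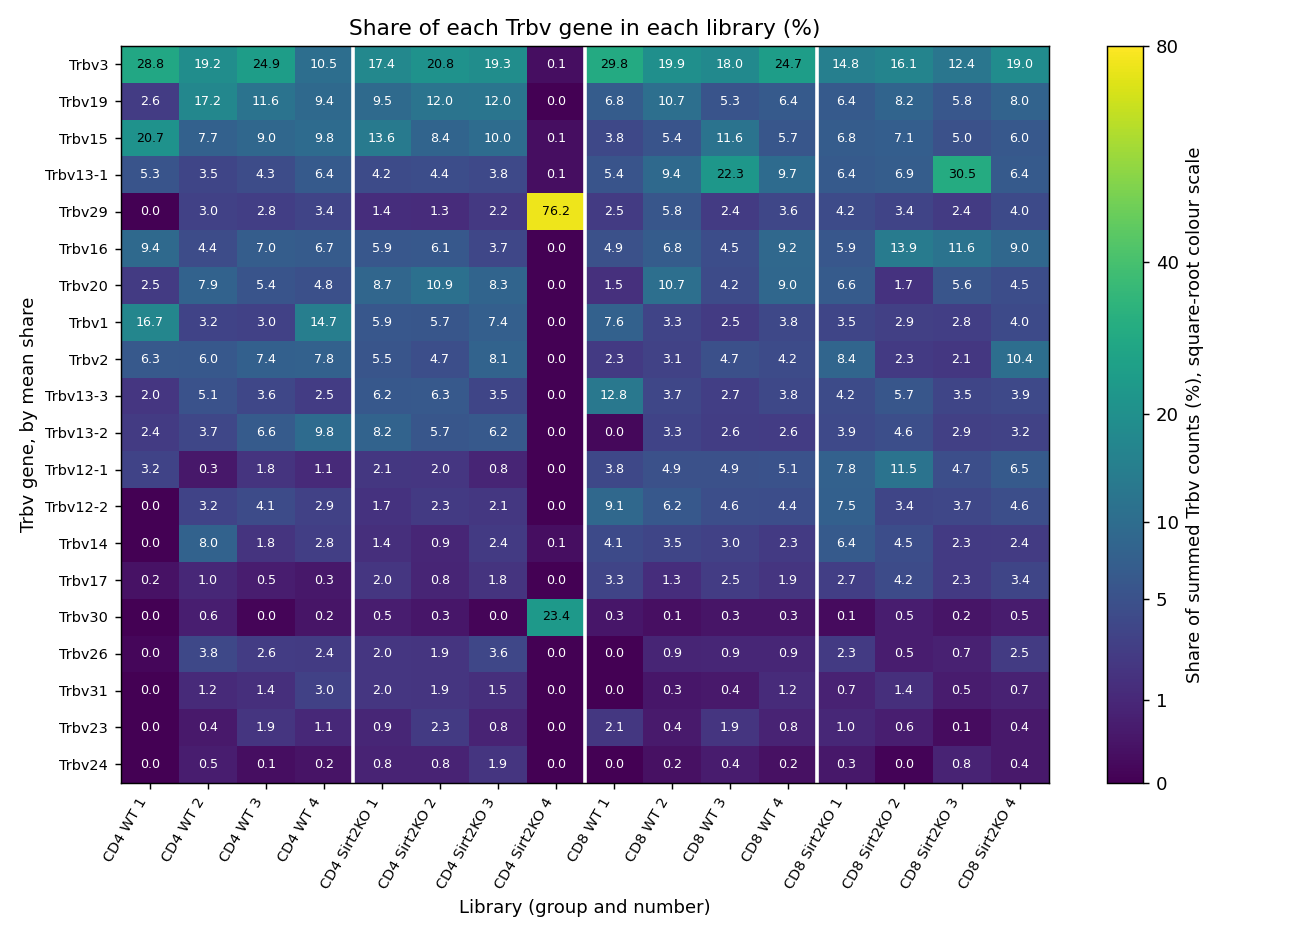
Share of the summed Trbv counts (%, colour on a square-root scale) of the 20 V genes with a mean share of at least 0.1% (rows, by mean share) in the 16 libraries (columns). Trbv3 is the top gene in 12 libraries, and CD4 Sirt2KO 4 stands apart with Trbv29 at 76.2% and Trbv30 at 23.4%.

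Usage was spread over a core of V genes. Of the 35 genes, 27 had a count in some library, and the 8 without any were pseudogenes. The 9 genes with a mean share of at least 5% held 73.6% of the Trbv counts on average, 9 further genes had mean shares between 1% and 5% (Trbv13-3, Trbv13-2, Trbv12-1, Trbv12-2, Trbv14 at 2.87%, Trbv17, Trbv30, Trbv26 at 1.56% and Trbv31 at 1.02%), and Trbv23 (0.910%) and the pseudogene Trbv24 (0.419%) had between 0.1% and 1%. CD4 Sirt2KO 4 alone placed Trbv29 (mean share 7.41%) and Trbv30 (1.70%) in these ranges, as over the 13 libraries with at least 15000 genes detected their means were 3.07% and 0.274%. The other 7 genes with counts were Trbv21 (116 counts over all libraries), Trbv5 (42), Trbv22 (30), Trbv12-3 (30), Trbv25 (3), Trbv4 (3) and Trbv28 (1). Of the 573 counts on pseudogenes, 509 were on Trbv24.

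Trbv3, known in the older naming as Vβ16 (RefSeq synonym Tcrb-V16), was the most used V gene, with a mean share of 18.5%. Its share was 28.8, 19.2, 24.9 and 10.5% in the CD4 WT libraries, 17.4, 20.8, 19.3 and 0.101% in the CD4 Sirt2KO libraries, 29.8, 19.9, 18 and 24.7% in the CD8 WT libraries and 14.8, 16.1, 12.4 and 19.0% in the CD8 Sirt2KO libraries. It led in 12 of 16 libraries and kept the top mean share when counts were divided by transcript length (16.3%). The other leaders were Trbv1 in CD4 WT 4 (14.7%), Trbv13-1 in CD8 WT 3 (22.3%) and CD8 Sirt2KO 3 (30.5%), and Trbv29 in CD4 Sirt2KO 4 (76.2%).

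Trbv19 (Vβ6) followed with a mean share of 8.24%. It took 2.58, 17.2, 11.6 and 9.36% in CD4 WT, 9.48, 12, 12 and 0% in CD4 Sirt2KO, 6.76, 10.7, 5.35 and 6.41% in CD8 WT and 6.35, 8.22, 5.85 and 8.01% in CD8 Sirt2KO libraries. Per base of transcript, Trbv19, whose 566-base model is the longest of the functional V genes, moved from rank 2 to rank 7, and Trbv13-1 rose from rank 4 to rank 2.

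Trbv16 (Vβ11) had a mean share of 6.81%, with 9.41, 4.35, 6.96 and 6.67% in CD4 WT, 5.90, 6.08, 3.68 and 0% in CD4 Sirt2KO, 4.92, 6.83, 4.51 and 9.24% in CD8 WT and 5.94, 13.9, 11.6 and 8.99% in CD8 Sirt2KO libraries. Trbv20 (Vβ15) had a mean share of 5.76%, with 2.46, 7.86, 5.43 and 4.83% in CD4 WT, 8.69, 10.9, 8.29 and 0% in CD4 Sirt2KO, 1.5, 10.7, 4.18 and 8.98% in CD8 WT and 6.6, 1.71, 5.60 and 4.51% in CD8 Sirt2KO libraries. Trbv2 (Vβ4) had a mean share of 5.21%, with 6.27, 6.03, 7.44 and 7.80% in CD4 WT, 5.51, 4.69, 8.13 and 0% in CD4 Sirt2KO, 2.27, 3.08, 4.69 and 4.20% in CD8 WT and 8.43, 2.28, 2.12 and 10.4% in CD8 Sirt2KO libraries. For Trbv16 and Trbv20 every pair of groups overlapped. For Trbv2 the exception was CD4 WT, which lay wholly above CD8 WT. After Trbv3, neighbours in the order of mean share lay closer together than the SD between libraries, and their order was not tested.

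CD4 Sirt2KO 4 held a collapsed V gene profile. Of its 993 Trbv counts, 757 were on Trbv29 (Vβ7; 76.2%, exact 95% interval 73.5 to 78.9%, for counting error only) and 232 on Trbv30 (Vβ18), and the remaining 4 were single counts on Trbv3, Trbv13-1, Trbv14 and Trbv15. In the other 15 libraries Trbv29 ranged from 0 to 5.75% and Trbv30 from 0 to 0.560%. The library was not short of constant region reads to the same degree, with Trbc1 and Trbc2 at 126 CPM together against 188 to 307 CPM elsewhere, so it had 0.127 Trbv counts per Trbc count against 0.513 to 0.869 in the other libraries. Its 14 Trbj genes summed to 0.0320 CPM, against 12.3 to 41.0 CPM in the others. Its 128 Trav genes, the V segments of the alpha chain, summed to 59.7 CPM, within the 37.1 to 117 CPM of the other libraries, while its 60 Traj genes, the J segments of that chain, summed to 29.1 CPM, below the 50.1 to 170 CPM of the others. The innate-like T cell list (Zbtb16, Trav11 and Trav11d) summed to 16.5 CPM in this library, all of it Zbtb16, against 0 to 6.43 CPM in the others, and the part of such cells in its profile was not tested.

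CD4 WT 1, the next lowest in genes detected, also had an uneven profile, led by Trbv3 (28.8%), Trbv15 (20.7%) and Trbv1 (16.7%), with counts on 13 V genes. It had the most melanoma transcript, 90.4 CPM summed over Mlana, Pmel, Tyrp1, Dct and Tyr against 1.54 to 24.6 CPM in the other 15. The part of these in its profile was not tested. The effective number of V genes, which is 2 raised to the Shannon entropy of the shares in bits and would equal the number of genes if all were used evenly, was 1.78 in CD4 Sirt2KO 4, 7.47 in CD4 WT 1 and 10.6 in CD8 WT 1. In the other 13 libraries it ran from 11.1 to 15.6 (mean 13.5 ± 1.11, SD), so the 3 libraries with few genes detected were also the 3 least even. Among those 13 it was 13.4 ± 0.712 in CD4 WT (n = 3), 13.8 ± 0.195 in CD4 Sirt2KO (n = 3), 12.9 ± 0.484 in CD8 WT (n = 3) and 13.8 ± 1.94 in CD8 Sirt2KO (n = 4). These ranges overlapped except that CD4 Sirt2KO (13.6 to 13.9) lay above CD8 WT (12.3 to 13.3). When every library was thinned to 993 Trbv counts, the order of these 3 libraries below the rest was kept, at 1.78, 7.72 and 10.3 against 11.0 or more.

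**Figure D2:**
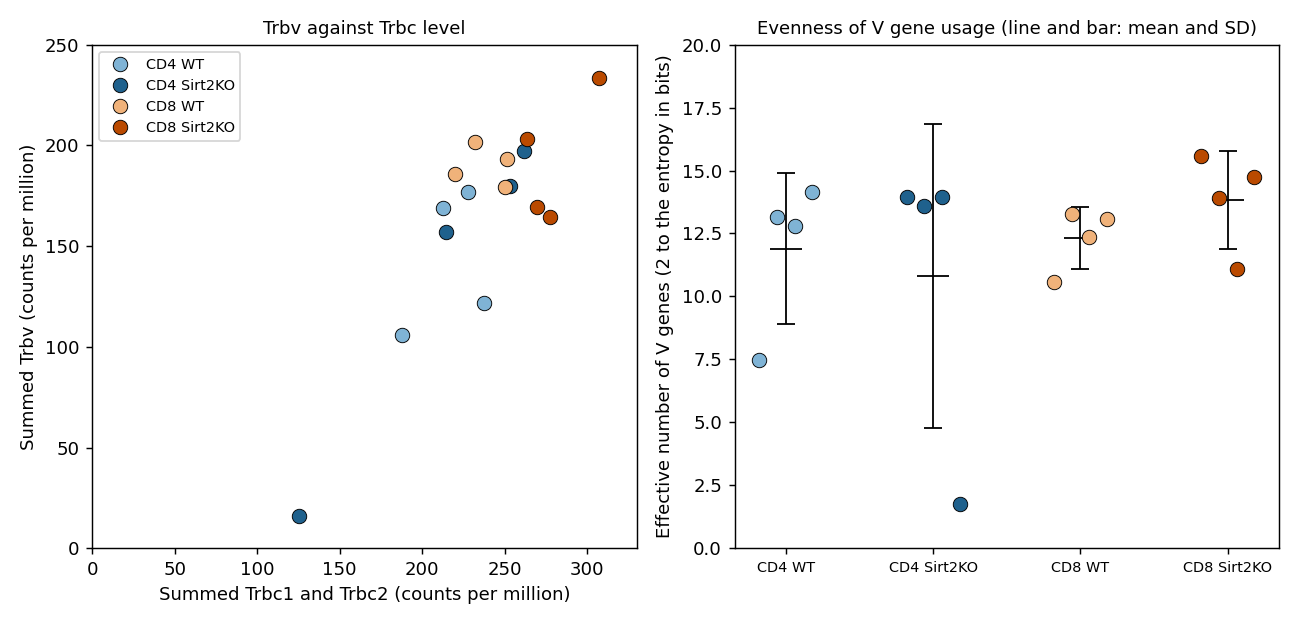
Left, summed Trbv level against summed Trbc1 and Trbc2 level (CPM) in each library. Right, effective number of V genes in each library by group, with the mean and SD of 4 libraries. CD4 Sirt2KO 4 is the point near the floor of both panels, at 15.9 CPM and 1.78 effective V genes.

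The CD8 against CD4 comparison asks whether cells restricted by MHC class I and by MHC class II used different V genes. Trbv12-1 (Vβ5.2) was the V gene that separated the cell types. It took 3.82, 4.93, 4.94 and 5.08% of Trbv counts in CD8 WT and 7.79, 11.5, 4.69 and 6.48% in CD8 Sirt2KO libraries, against 3.20, 0.318, 1.77 and 1.13% in CD4 WT and 2.10, 1.99, 0.834 and 0% in CD4 Sirt2KO libraries. Every CD8 library lay above every CD4 library, and Trbv12-1 was the only 1 of the 18 V genes with a mean share of at least 1% whose shares did not overlap. The mean share was 6.16 ± 2.5% in CD8 and 1.42 ± 1.05% in CD4 TILs (SD, n = 8 each), a difference of 4.74 percentage points (exact permutation within genotype, two-sided p = 4.1e-04, the smallest that 4900 assignments give). The difference was 3.09 points in WT and 6.39 points in Sirt2KO libraries.

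Trbv12-2 (Vβ5.1), the close relative of Trbv12-1, also had a higher share in CD8 TILs. Its share was 9.11, 6.15, 4.62 and 4.43% in CD8 WT and 7.46, 3.43, 3.69 and 4.59% in CD8 Sirt2KO libraries, against 0, 3.22, 4.13 and 2.93% in CD4 WT and 1.69, 2.27, 2.08 and 0% in CD4 Sirt2KO libraries. The cell types did not overlap within either genotype, although over both genotypes CD8 Sirt2KO 2 and CD8 Sirt2KO 3 lay below CD4 WT 3. The difference in mean share was 3.40 points (exact permutation, p = 4.1e-04), and once the 3 libraries under 15000 detected genes, whose CD4 members were at 0, were left out it was 2.19 points (p = 0.00571 by the same exact test). Summed over Trbv12-1, Trbv12-2 and the pseudogene Trbv12-3, the Trbv12 genes took 8.38 to 15.2% of Trbv counts in CD8 and 0 to 6.0% in CD4 libraries.

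Trbv13-1 (Vβ8.3) had the largest difference in mean share. It took 5.41, 9.44, 22.3 and 9.67% in CD8 WT and 6.41, 6.94, 30.5 and 6.35% in CD8 Sirt2KO libraries, against 5.34, 3.46, 4.31 and 6.45% in CD4 WT and 4.20, 4.43, 3.84 and 0.101% in CD4 Sirt2KO libraries. CD8 WT 3 and CD8 Sirt2KO 3 stood far above the rest, and the other 6 CD8 libraries ran from 5.41 to 9.67%, overlapping CD4 WT. The mean share was 12.1 ± 9.19% in CD8 and 4.02 ± 1.84% in CD4 TILs, a difference of 8.11 points (exact permutation, p = 8.2e-04). Leaving out each library in turn gave differences of 5.49 to 9.07 points, with p of up to 0.0114 by the same exact test.

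The other Trbv13 genes did not share this pattern. Trbv13-3 (listed as Tcrb-V8 and Tcrb-V8.1) took 12.8, 3.67, 2.70 and 3.76% in CD8 WT, 4.20, 5.68, 3.54 and 3.90% in CD8 Sirt2KO, 1.96, 5.13, 3.57 and 2.55% in CD4 WT and 6.15, 6.31, 3.53 and 0% in CD4 Sirt2KO libraries. Trbv13-2 (Vβ8.2) had a lower mean share in CD8 (2.87 ± 1.33%) than in CD4 TILs (5.32 ± 3.18%), the opposite direction to Trbv13-1. Summed over the 3 genes, the Trbv13 share was 20.03 ± 8.08% in CD8 and 13 ± 6.06% in CD4 TILs, and the difference of 7.04 points did not pass the test (exact permutation, p = 0.0739).

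The largest differences in the direction of CD4 were those of Trbv29, Trbv15 and Trbv1. Trbv29 averaged 3.54% in CD8 and 11.3% in CD4 TILs, with 2.45, 5.75, 2.42 and 3.65% in CD8 WT, 4.23, 3.42, 2.37 and 3.99% in CD8 Sirt2KO, 0, 3.02, 2.79 and 3.36% in CD4 WT and 1.40, 1.30, 2.23 and 76.2% in CD4 Sirt2KO libraries. The higher CD4 mean rested on CD4 Sirt2KO 4 alone (p = 0.987), and without that library Trbv29 was higher in CD8 TILs by 1.52 points (exact permutation, p = 0.0269). A single library thus turned the direction for this gene.

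Trbv15 (Vβ12) took 3.79, 5.35, 11.6 and 5.71% in CD8 WT, 6.85, 7.14, 4.99 and 5.99% in CD8 Sirt2KO, 20.7, 7.74, 8.96 and 9.79% in CD4 WT and 13.6, 8.37, 10.04 and 0.101% in CD4 Sirt2KO libraries, a difference of -3.48 points for CD8 against CD4 (exact permutation, p = 0.143). Trbv1 (Vβ2) took 7.63, 3.33, 2.45 and 3.78% in CD8 WT, 3.51, 2.92, 2.78 and 4.01% in CD8 Sirt2KO, 16.7, 3.18, 3.03 and 14.7% in CD4 WT and 5.92, 5.66, 7.39 and 0% in CD4 Sirt2KO libraries, a difference of -3.27 points (p = 0.163 by the same exact test). For both, the CD4 WT libraries were spread widely, and neither difference exceeded the spread between libraries. Without CD4 Sirt2KO 4 both passed at an unadjusted threshold of 0.05, with -4.88 points for Trbv15 (exact permutation, p = 0.0102) and -4.28 points for Trbv1 (p = 0.0453). Without CD4 WT 1 they were smaller, at -1.95 points for Trbv15 (exact permutation, p = 0.294) and -1.90 points for Trbv1 (p = 0.339), and Trbv1 was at -2.18 points without CD4 WT 4. Without all 3 libraries with few genes detected they were -2.95 points (exact permutation, p = 0.0429) and -3.39 points (p = 0.0114). These 6 V genes were the extremes of 18 compared, and their p-values are not adjusted.

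**Figure D3:**
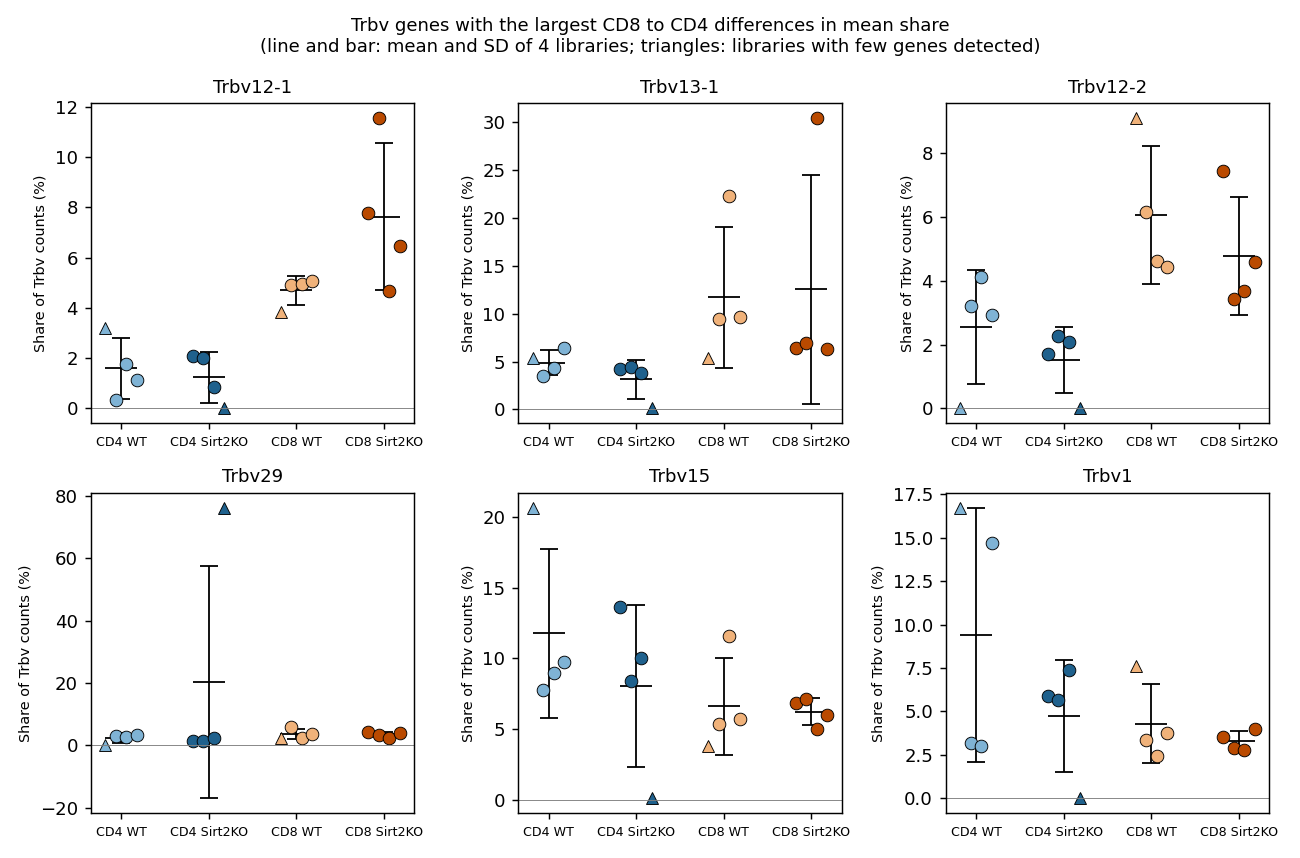
Share of the summed Trbv counts (%) of the 6 V genes with the largest CD8 to CD4 differences in mean share, by group. Points are libraries, triangles are the 3 libraries with few genes detected, and lines with bars give the mean and SD of 4 libraries. For Trbv12-1 every CD8 point lies above every CD4 point, and for Trbv29 1 CD4 Sirt2KO point at 76.2% sets the group mean.

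The same question was put to transcript levels in a model over all genes, fitted with edgeR to the 16 libraries. Of 17270 genes tested, 11.3% were called between CD8 and CD4 TILs at a Benjamini-Hochberg adjusted p under 0.05, 5.65% higher and 5.7% lower in CD8. Of the 35 Trbv genes, 21 passed the filter on low counts, and 1 of them was called. This was Trbv12-1, higher in CD8 TILs with a log2 fold change of 2.45 (SE 0.77, adjusted p = 0.0488). A share of 1 in 21 is below the background of 11.3%. The call was close to the threshold and was lost when any library other than CD4 Sirt2KO 4 was left out, with adjusted p of up to 0.108, while its log2 fold change ranged from 2.03 to 2.96 over all settings run.

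Trbv13-1 and Trbv12-1 were the 2 of 21 tested V genes whose CPM, here after edgeR scaling, did not overlap between CD8 and CD4 libraries. The share over all genes tested was 7.41%, and 2 of 21 is near it, so the count is no result about V genes. Trbv13-1 had a log2 fold change of 1.92 (SE 0.69, edgeR adjusted p = 0.0877). Trbv12-2, at 1.70 (SE 0.90), had an adjusted p of 0.291, and Trbv29, Trbv15 and Trbv1, at 0.65, -0.25 and -0.45, had adjusted p of 0.707, 0.906 and 0.829. DESeq2, which called 17.9% of all genes, called Trbv12-1 (adjusted p = 0.00248), Trbv13-1 (adjusted p = 0.0218) and Trbv17 (adjusted p = 0.0184). Trbv17 (Vβ9), named here after its values were seen, took 1.34 to 4.17% of Trbv counts in CD8 and 0 to 2.04% in CD4 libraries.

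Without the 3 libraries with few genes detected, edgeR called 37.7% of 17993 genes, 19.3% higher and 18.3% lower in CD8, and 9 of 21 tested V genes. Of these, 6 were higher in CD8 TILs, namely Trbv12-1 (log2 fold change 2.47, SE 0.40, adjusted p = 1.9e-04), Trbv13-1 (1.78), Trbv17 (1.53), Trbv12-2 (1.14), Trbv29 (0.98) and Trbv16 (0.81). The other 3 were lower, namely Trbv26 (-0.99), Trbv13-2 (-0.80) and Trbv1 (-0.72). These are 9 of 21 against the background of 37.7%. Trbv13-1 and Trbv13-2, with V exons 87.8% identical, were called in opposite directions.

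**Figure D4:**
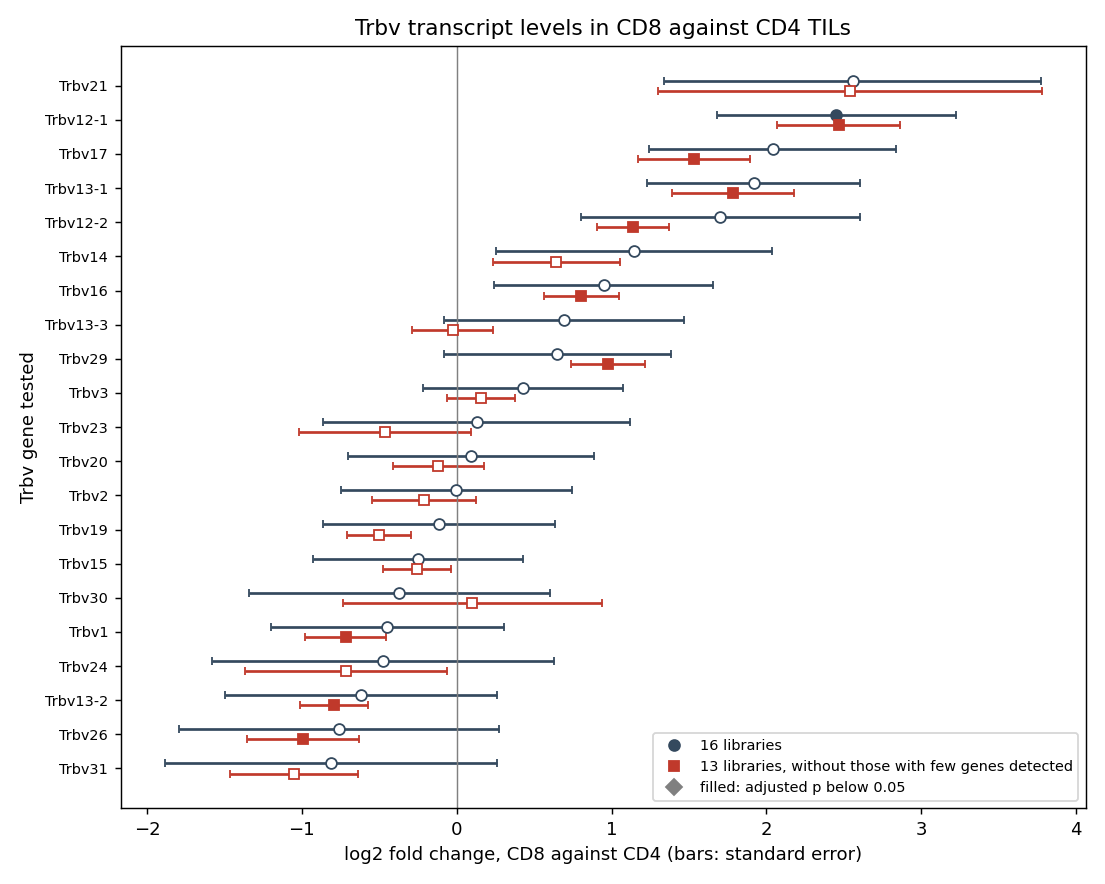
Log2 fold change of the 21 tested Trbv genes in CD8 against CD4 TILs with its standard error, over all 16 libraries (circles) and over the 13 libraries with at least 15000 genes detected (squares). Filled symbols have an adjusted p under 0.05; 1 gene is filled over 16 libraries and 9 genes over 13.

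Markers of other cells also differed between the sorted populations. The gamma delta T cell list (Trdc, Tcrg-C1, Tcrg-C2 and Tcrg-C4, 4 of 4 detected) summed to 87.5 to 224 CPM in CD8 and to 10.3 to 81.0 CPM in CD4 libraries. Most of the CD8 sum was Tcrg-C2, at 59.2 to 187 CPM in CD8 and 3.66 to 37.1 CPM in CD4 libraries. Tcrg-C1 overlapped, at 5.46 to 16.7 CPM in CD8 and 0 to 23.8 CPM in CD4 libraries. The defining gene Trdc also overlapped, at 6.24 to 22.4 CPM in CD8 and 1.36 to 43.9 CPM in CD4 libraries. The NK list (Ncr1, Klrb1c and Eomes) summed to 212 to 418 CPM in CD8 and 14.1 to 47.3 CPM in CD4 libraries, nearly all of it Eomes, which CD8 T cells also express, with Ncr1 at 0 to 3.39 CPM in all libraries. The Treg list (Foxp3, Il2ra and Ikzf2) summed to 1013 to 2371 CPM in CD4 and 99.4 to 296 CPM in CD8 libraries. Trav11 and Trav11d, which mark invariant NKT cells, were at 0 in 14 and in 16 libraries. The B cell list summed to 0.0160 to 13.4 CPM and the myeloid list to 1.61 to 28 CPM over all libraries. The part of these cells in the V gene differences was not tested.

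Constant, D and J segment genes were not called between cell types. Trbc1 (log2 fold change 0.11, edgeR adjusted p = 0.584), Trbc2 (0.41, adjusted p = 0.195) and Trac (-0.17, adjusted p = 0.548) were not called. Of the 2 Trbd and 12 Trbj genes tested, 0 were called, against 11.3% of all genes tested. At that share, 0 of so few genes is no result about D and J segments. Among the CD3 chains that carry the receptor to the surface and signal for it, Cd3g (0.62, adjusted p = 0.0129) and Cd3d (0.36, adjusted p = 0.028) were higher and Cd247 (-0.59, adjusted p = 6.0e-05) was lower in CD8 TILs, and Cd3e (0.45) had an adjusted p of 0.0622 in the same edgeR fit.

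Over the whole V gene profile, the difference between a pair of libraries was taken as the share of Trbv counts that would have to move to another V gene to make the profiles equal. Over the 13 libraries with at least 15000 genes detected, it had a median of 20.8% between libraries of the same group (11.2 to 30.5%, 15 pairs) and of 27% between CD4 and CD8 libraries (19.0 to 41.0%, 42 pairs). Between genotypes it had a median of 18.9% in CD4 libraries (14.3 to 26.6%, 9 pairs). In CD8 libraries the median between genotypes was 23.7% (14.7 to 30.0%, 12 pairs). Both lay within the range between libraries of the same group, as did the median between CD4 and CD8 libraries. Same-group pairs had a median of 16.4% in CD4 (6 pairs) and of 22.0% in CD8 libraries (9 pairs). They ran from 11.2 to 13.9% in CD4 Sirt2KO and from 19.0 to 30.5% in CD4 WT. For 14 of 16 libraries the most similar profile came from the same cell type, and for 10 of 16 from the same genotype. Among the 13 libraries with at least 15000 genes detected, these counts were 13 for cell type and 8 for genotype. With 8 of 16 libraries in each genotype, the genotype counts are near an even split and are no result about genotype. The exceptions for cell type were CD4 WT 1 and CD4 Sirt2KO 4, which differed from every other library by at least 34.2% and 93.7%. CD8 WT 3 and CD8 Sirt2KO 3, both rich in Trbv13-1, were nearest to each other at 19.1%.

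**Figure D5:**
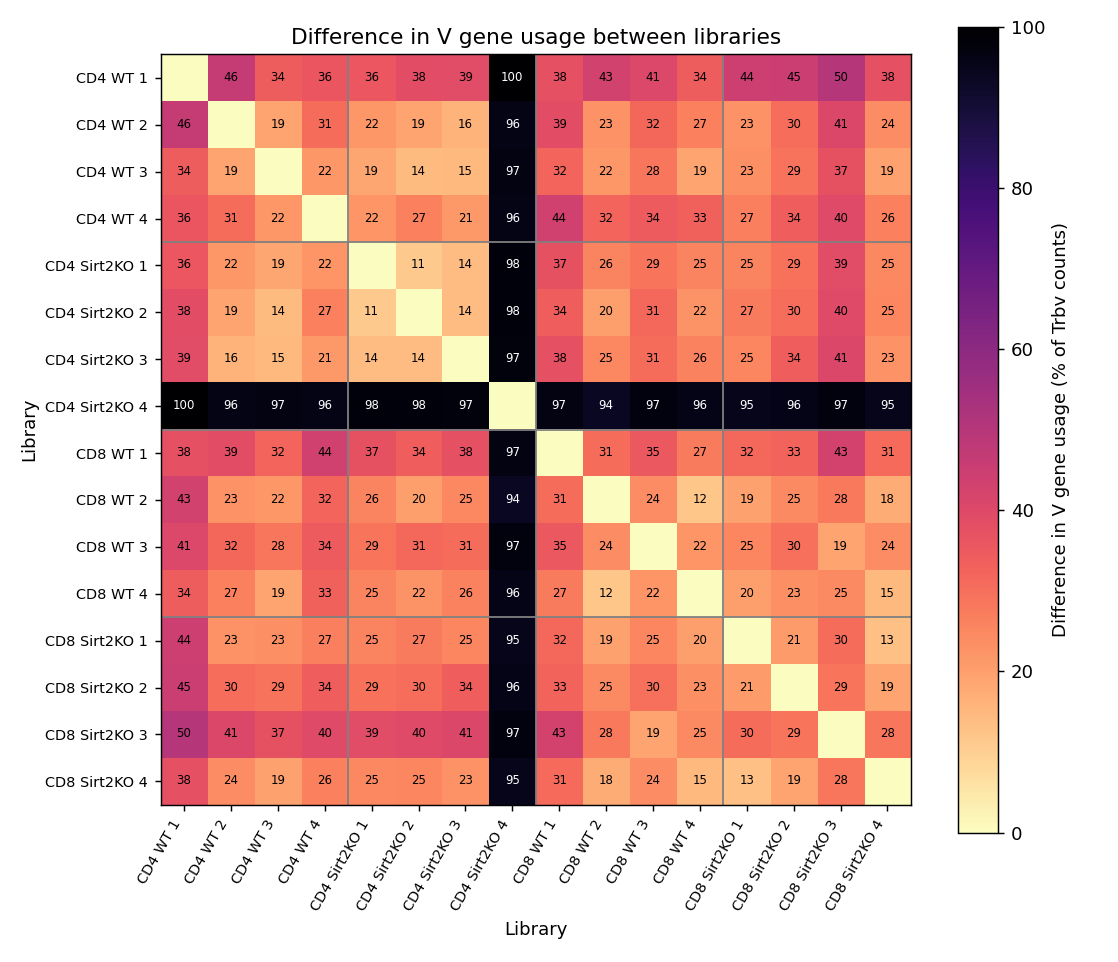
Difference in V gene usage between each pair of the 16 libraries (% of Trbv counts that would have to move to another V gene). The row of CD4 Sirt2KO 4 is at 93.7% or more throughout, and the pairs within CD4 and within CD8 are mostly lower than the pairs between them.

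No V gene was called between Sirt2KO and WT in CD4 TILs. Of 15070 genes tested, 0% were called by edgeR, and 0 of 20 tested Trbv genes were called or had an unadjusted p under 0.05. DESeq2 also called 0 V genes, although it gave no p for Trbv29. Sirt2 itself was thus not called by edgeR, although it was at 40.2 to 81.1 CPM in CD4 WT and 0 to 12.3 CPM in CD4 Sirt2KO libraries. A fit that misses the deleted gene cannot show that V gene usage was unchanged. No tested V gene had CPM that did not overlap between the genotypes, against 3.09% of all genes. In these libraries Trdc was at 23.3 to 43.9 CPM in CD4 Sirt2KO and 1.36 to 9.53 CPM in CD4 WT (not called, adjusted p = 1.0), and the part of this in V gene usage was not tested.

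Shares in CD4 TILs were compared for the 6 V genes with the largest differences of 18, each with an exact permutation test over 70 assignments, which cannot go below p = 0.0286. Sirt2KO minus WT was 18 points for Trbv29 (20.3 ± 37.3% against 2.29 ± 1.55%, SD, n = 4 each, exact permutation p = 0.743) and 5.84 points for Trbv30 (p = 0.371), both set by CD4 Sirt2KO 4. Trbv30 was at 0, 0.560, 0.0142 and 0.248% in CD4 WT and at 0.497, 0.301, 0.0149 and 23.4% in CD4 Sirt2KO libraries, against 0.0656 to 0.489% in CD8 libraries. It was 1.82 points for Trbv20 (exact permutation, p = 0.457), -6.44 points for Trbv3 (p = 0.400), -4.67 points for Trbv1 (p = 0.314) and -3.75 points for Trbv15 (p = 0.486). None of the 6 exceeded the spread between libraries, and the genotypes overlapped for all 18 V genes.

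Without the libraries with few genes detected, 3 were left per genotype and the exact test cannot go below 0.1. Trbv20 was then at 9.28 ± 1.38% in CD4 Sirt2KO and 6.04 ± 1.61% in CD4 WT (p = 0.1, exact permutation) and Trbv29 at 1.64 ± 0.514% and 3.06 ± 0.285% (p = 0.1), and Trbv12-2 at 2.02 ± 0.293% and 3.43 ± 0.623% (not tested). These 3 of 18 V genes did not overlap between the genotypes. With 3 libraries per genotype, groups without any difference also fail to overlap in 0.1 of the assignments. The share over all genes was not computed for these libraries, so the count is no result about the V genes. Trbv3 turned from -6.44 to 0.990 points and Trbv15 from -3.75 to 1.86 points, and Trbv1 went from -4.67 to -0.653 points. Trbv21, named after its values were seen, had 4, 40, 11 and 0 counts in CD4 Sirt2KO and 0 in all 4 CD4 WT libraries.

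In CD8 TILs, 0.00654% of 15302 genes were called between the genotypes, and 0 of 20 tested Trbv genes were called by edgeR or by DESeq2. Of these, 3 had an unadjusted p under 0.05, Trbv3 (log2 fold change -0.53, adjusted p = 0.986), Trbv12-1 (0.80, adjusted p = 0.986) and Trbv16 (0.71, adjusted p = 0.986). No tested V gene had CPM that did not overlap, against 2.96% of all genes.

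Trbv3 had the largest difference in share, at 15.6 ± 2.77% in CD8 Sirt2KO and 23.1 ± 5.25% in CD8 WT libraries (-7.53 points, exact permutation over 70 assignments, p = 0.0571). The 3 lowest of the 8 libraries were Sirt2KO, and only CD8 Sirt2KO 4 (19.0%) lay within the WT range. Leaving out each library in turn gave -9.23 to -5.32 points, with exact permutation p from 0.0286, the smallest that 35 assignments give, to 0.143. The first is without CD8 WT 3, and the second without CD8 WT 1 (p = 0.0857 by the exact test), a library with few genes detected. Sirt2KO minus WT was 3.73 points for Trbv16 (p = 0.143), 2.93 points for Trbv12-1 (p = 0.114), 2.25 points for Trbv2 (p = 0.400), -1.74 points for Trbv20 (p = 0.514) and -1.39 points for Trbv13-3 (p = 0.943) by the same exact permutation test. For Trbv12-1, leaving out each library in turn gave 1.62 points (without CD8 Sirt2KO 2) to 3.91 points (without CD8 Sirt2KO 3), with exact permutation p from 0.0286 to 0.257. Without CD8 WT 1 it was 2.64 points (exact permutation, p = 0.257). Trbv13-3 turned to 0.951 points without CD8 WT 1, where it took 12.8%, and Trbv20 went to -3.35 points (exact permutation, p = 0.200).

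The genotype effect was not called as different between the cell types for any V gene. In the edgeR test of that difference 0% of 17270 genes were called, and of the 21 tested Trbv genes only Trbv21 had an unadjusted p under 0.05 (0.0323, adjusted p = 1.0); DESeq2 called 0 of 21.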

How the data were processed

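Total RNA of CD4+ and CD8+ TILs was sequenced by the authors from 16 libraries (CD3ε bead selection after digestion of the tumors, then isolation of CD4+ and CD8+ cells, and a stranded total RNA kit). Raw, unnormalized read counts for each gene, all whole numbers, were deposited by the authors as a single file. STAR, HTSeq and the build mm10 are named in the submitters' processing notes; the counting mode is not given in the sources used here. All 55450 gene identifiers match GENCODE mouse release 21 (GRCm38), from which positions, exon lengths and sequences were taken. Columns were matched to libraries by name and none was left unused. Shares are the count of a V gene over the summed Trbv counts of its library, with no correction for transcript length unless stated. Reads that cross the V to J joint may be lost in alignment, and reads mark transcripts, not cells.

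Levels were tested with edgeR 4.0.16 in R 4.3.3 (TMM, filterByExpr by group, robust quasi-likelihood fit and test) on all genes, with Benjamini-Hochberg adjustment over all genes tested and a threshold of 0.05. CD8 was set against CD4 as the mean of the differences within genotypes over 16 libraries, and Sirt2KO against WT in the 8 libraries of each cell type. The SE given with an edgeR log2 fold change was derived from the test. It is the absolute log2 fold change over the square root of the quasi-likelihood F statistic. Genes whose CPM did not overlap between groups were counted on CPM of the tested genes scaled with TMM factors. Shares were compared with two-sided exact permutation tests that enumerated every assignment (Python 3.11.15), for CD8 against CD4 within genotype. V genes given per library had a mean share of at least 5%, led a library, were called, or were among the 3 largest share differences in each direction of a comparison at a mean share of at least 1%. Members, lists and tests, and the set of 3 libraries left out in an alternative, were chosen with earlier results of these data known. The functions were tested on simulated data. Libraries of the same number are not stated to come from the same mouse, so numbers were not taken as pairs in the main fit. Correlations of their deviations from the group means were 0.067 to 0.119 between CD4 WT and CD8 WT. They were -0.014 to 0.133 between CD4 Sirt2KO and CD8 Sirt2KO. Between the genotypes they were -0.072 to 0.077 in CD4 and -0.056 to 0.031 in CD8. Whether the libraries are paired cannot be told from these values. DESeq2 1.42.0, other scalings, no filter, a replicate block, left-out libraries, other denominators and thinning were alternatives, and shares per base of transcript were an alternative chosen after the data were seen.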

Additional observations from a re-analysis of the deposited data

Results flagged for a closer look

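Within each group of 4 libraries, the 13 V genes given per library and 4 measures of usage (summed Trbv level, Trbv counts per Trbc count, share of the leading V gene and entropy) were examined for a library far from the other 3 by Dixon's criterion, which chance meets in about 1 of 20 groups. It was met 14 times in 68 groups examined, and 7 of the 14 were in CD4 Sirt2KO 4. Chance would give 3.4 only if the groups were independent. They are not, as shares within a library depend on each other and the V genes were chosen from these shares. The count of 14 is therefore not set against chance. In that library Trbv29 took 76.2% of Trbv counts against 1.30 to 2.23% in the other 3, Trbv30 took 23.4% against 0.0149 to 0.497%, Trbv3 took 0.101% against 17.4 to 20.8% and Trbv13-1 took 0.101% against 3.84 to 4.43%. Its leading V gene held 76.2% against 17.4 to 20.8%, its entropy was 0.829 bits against 3.77 to 3.80 bits, and it had 0.127 Trbv counts per Trbc count against 0.711 to 0.753.

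In CD4 WT 1, Trbv15 took 20.7% against 7.74 to 9.79% in the other 3, Trbv29 was at 0% against 2.79 to 3.36%, and entropy was 2.90 bits against 3.68 to 3.82 bits. In CD8 WT 1, Trbv13-3 took 12.8% against 2.70 to 3.76% and Trbv12-1 took 3.82% against 4.93 to 5.08%. These 3 libraries are those with fewer than 15000 genes detected. Among the others, Trbv30 was at 0.133% in CD8 WT 2 against 0.265 to 0.284%, and Trbv13-1 took 30.5% in CD8 Sirt2KO 3 against 6.35 to 6.94% in the other 3. CD8 Sirt2KO 3 had 20036 genes detected and 8429 Trbv counts, within the range of its group, and the other library rich in Trbv13-1, CD8 WT 3, carried the same replicate number in the other genotype at 22.3%.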

How the results depend on the processing

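The genotype results kept 0 called V genes under every alternative run, 14 in CD4, 14 in CD8 and 22 for the difference between them. A replicate block changed none of these. Few genes of any kind were called in these alternatives. The most were 156 of 15070 in CD4 (library sizes from Trbv counts), 28 of 15302 in CD8 and 2 of 17270 for the difference (both DESeq2). At such shares, 0 called V genes is no result about V genes. For CD8 against CD4, 1 V gene was called. The count was 3 with DESeq2, which called 3094 of 17270 genes. It was 0 with the size factors of DESeq2 in edgeR (2030 of 17270 genes called) and 0 without the filter (1652 of 29671). With the replicate block, a pairing by number that the labels do not state, the count was 0 (1443 of 17270 genes called). It was 0 in the Sirt2KO libraries alone, where 354 of 15787 genes were called. At that share, 0 of 20 tested V genes is no result about V genes. The count was 1 in the WT libraries alone (Trbv13-1), with 1765 of 14892 genes called. It was 1 with library sizes from Trbv counts, with 2712 of 17270 genes called. Once the 3 libraries under 15000 detected genes were left out, it was 9. Leaving out 1 library gave 0 to 4, with 4 of 21 tested V genes only without CD4 Sirt2KO 4. That fit called 4534 of all 18128 genes tested, so the rise was not particular to V genes. The fit without these 3 libraries called 6776 of all genes against 1959 with them.

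Of 273 recomputed share differences and entropies, 256 kept their direction and their side of 0.05, 10 turned, 6 passed and 1 no longer passed, and the shares of Trbv12-1, Trbv12-2 and Trbv13-1 in CD8 against CD4 turned in none. With the same 3 libraries left out, Trbv29 turned to 1.34 points for CD8 minus CD4, and for Sirt2KO minus WT in CD4 Trbv29 turned to -1.41, Trbv30 to -0.0033, Trbv3 to 0.990 and Trbv15 to 1.86 points. Trbv13-3 in CD8 turned to 0.951 points without them and to 0.924 points with the Trbv13 genes summed. Leaving out 1 library gave -9.37 to 1.52 points for Trbv29 in CD8 minus CD4, -0.648 to 24.3 points for Trbv29 in CD4 between genotypes, and -2.40 to 0.951 points for Trbv13-3 in CD8. The summed Trbv count, 993 in the lowest library, limits shares under 0.302% there.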
